A study of Homo sapiens with 4 samples.

Results

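Long intergenic non-coding RNA genes, named LINC and a number by the gene nomenclature committee, were described in MHCC97H cells with and without knockdown of HNRNPM. They were selected on their level: every gene name made of LINC and digits alone was taken whose RPKM (reads scaled to exon length in kilobases and to sequencing depth), averaged over the 4 deposited tables, was at least 0.5. This kept 147 of 542 such names, among 39306 names in all. The rule used the mean level over all 4 libraries and not the difference between the groups. The groups could therefore be compared, with 1 limit. A gene scarce in 1 group can reach 0.5 through the other, and a difference is then part of its selection. Such genes include LINC00880, LINC01559 and LINC00189, below 0.5 in both controls, and LINC00176, below 0.5 in both knockdown libraries.

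MHCC97H is an established line of human hepatocellular carcinoma cells with a high capacity to spread in mice. Wild-type cells gave 2 control libraries, and cells with a short hairpin RNA against HNRNPM (sh-HNRNPM) gave 2 knockdown libraries. No other agent or allele is named for either group, and a control hairpin is not named in the labels, so the hairpin itself and the loss of HNRNPM cannot be told apart. The labels do not say whether the 2 replicates of a group were separate cultures, and p-values then measure only the spread between these libraries. The RNA was total RNA depleted of ribosomal RNA, which keeps transcripts with and without a poly(A) tail.

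Long intergenic RNAs are mostly made by RNA polymerase II and are capped and spliced like messenger RNAs, but they are usually shorter lived, have fewer exons and are present at lower levels. Some stay near the place of their synthesis and act on neighbouring genes, some arise at enhancers, and some turned out to encode small proteins. Many are trimmed or degraded in the nucleus by the RNA exosome and its adapters. HNRNPM is an abundant nuclear RNA-binding protein that controls splicing through GU-rich stretches of introns, and its part in the level of non-coding RNAs is less well described.

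Assigned reads numbered 18317579 and 19659106 for control and 12708165 and 11498663 for knockdown, so the latter were shallower. Levels below are RPKM divided by a TMM factor (trimmed mean of M-values, which evens out library composition), called scaled RPKM. HNRNPM was at 52.1 and 53.1 scaled RPKM in the controls and at 21.2 and 20.1 in the knockdown, a log2 fold change of -1.35 ± 0.07 (SE). Of the liver markers, HNF4A was at 6.49 to 7.64 and SERPINA1 at 3.70 to 4.54 in the 4 libraries, and AFP stayed at or below 0.442. ALB (log2 fold change -1.72), FGB (-1.31) and APOB (-0.93) fell, APOA1 did not pass (0.83) and TTR was not tested. The blood marker PTPRC had 0, 0, 4 and 0 reads. The endothelial marker PECAM1 was present at 8.68 and 9.27 in controls and 5.67 and 5.88 after knockdown, while VWF, a second endothelial marker, stayed at or below 0.0755. The fibroblast marker COL1A1 was higher (0.84), at 0.0282 and 0.0266 in controls and 0.125 and 0.131 after knockdown. It rested on 5 and 5 reads against 16 and 15. COL1A1 passed the filter on low values, given below, through the knockdown libraries alone, so a difference was built into its selection for the test. COL3A1 did not pass (0.68), at or below 0.249. The part of these shifts in the LINC values was not tested. In bulk RNA, fewer cells that make a transcript and less of it per cell cannot be told apart.

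The word intergenic held for part of the genes only. In the gene models of the files, 88 of the 147 had no exon base in common with another gene, and 59 did, 16 with a gene on the same strand and 47 with a gene on the opposite strand. The bodies of 45 lay over that of a named gene. Of the 143 found in GENCODE v29 by name, coordinates or current symbol, 97 are typed lincRNA, 18 antisense, 10 processed transcript, 9 protein coding and 5 pseudogene, and 4 have other types. The 147 genes had a median of 4 merged exons and a median exon length of 2270 bases, from 149 to 17599, and 18 had a single exon. A transcript of 16 of them shares at least 300 bases at 98% identity or more with that of another gene, which makes the assignment of reads between the copies uncertain. The library kit was stranded, but whether strand was used in counting is not stated in the labels, so reads of overlapping genes on opposite strands may not have been kept apart.

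Promoter sequences are shown for 6 genes, picked by their results below. LINC01510, LINC00852 and LINC00961 had differences that passed the test with any single library left out. LINC01271, LINC00460 and LINC00607 are the higher genes whose promoter holds the AP-1 string. Each is the RefSeq window (GRCh38.p14) from 250 bases before to 50 bases after the annotated start, 5′ to 3′ on the strand of the gene. Capitals mark TGANTCA, where N is any base. This is called the AP-1 string here and is wider than the AP-1 site, TGACTCA or TGAGTCA. The windows of LINC01510, LINC00852 and LINC00961 hold no such string and are in lower case throughout. Windows with the string in 7 genes that did not pass and 2 genes not tested are not shown. LINC01510 is at chr7:116614608-116614907 (minus strand), LINC00852 at chr3:10284169-10284468 (plus), LINC00961 at chr9:35909240-35909539 (plus), LINC01271 at chr20:50321293-50321592 (minus), LINC00460 at chr13:106376314-106376613 (plus) and LINC00607 at chr2:215843487-215843786 (minus).
LINC01510: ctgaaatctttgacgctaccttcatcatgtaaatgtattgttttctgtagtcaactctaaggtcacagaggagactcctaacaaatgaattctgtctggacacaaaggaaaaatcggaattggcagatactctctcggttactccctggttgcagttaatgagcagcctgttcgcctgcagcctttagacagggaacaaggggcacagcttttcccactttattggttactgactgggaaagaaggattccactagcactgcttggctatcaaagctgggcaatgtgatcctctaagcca
LINC00852: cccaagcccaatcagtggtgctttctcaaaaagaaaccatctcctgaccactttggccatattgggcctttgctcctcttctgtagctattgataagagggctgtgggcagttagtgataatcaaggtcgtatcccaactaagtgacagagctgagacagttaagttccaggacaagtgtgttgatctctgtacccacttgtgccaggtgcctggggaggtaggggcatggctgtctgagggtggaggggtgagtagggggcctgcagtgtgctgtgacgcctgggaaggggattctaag
LINC00961: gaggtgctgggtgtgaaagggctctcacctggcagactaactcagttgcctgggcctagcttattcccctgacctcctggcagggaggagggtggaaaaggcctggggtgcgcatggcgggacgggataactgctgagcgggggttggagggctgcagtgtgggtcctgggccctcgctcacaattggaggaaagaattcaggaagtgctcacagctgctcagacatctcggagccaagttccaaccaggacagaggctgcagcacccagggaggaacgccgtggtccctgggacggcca
LINC01271: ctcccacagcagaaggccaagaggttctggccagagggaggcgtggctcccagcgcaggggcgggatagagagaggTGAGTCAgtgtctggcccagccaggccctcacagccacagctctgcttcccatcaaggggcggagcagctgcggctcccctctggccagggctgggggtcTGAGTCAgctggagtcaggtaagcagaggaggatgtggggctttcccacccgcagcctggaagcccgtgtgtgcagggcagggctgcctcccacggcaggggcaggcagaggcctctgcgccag
LINC00460: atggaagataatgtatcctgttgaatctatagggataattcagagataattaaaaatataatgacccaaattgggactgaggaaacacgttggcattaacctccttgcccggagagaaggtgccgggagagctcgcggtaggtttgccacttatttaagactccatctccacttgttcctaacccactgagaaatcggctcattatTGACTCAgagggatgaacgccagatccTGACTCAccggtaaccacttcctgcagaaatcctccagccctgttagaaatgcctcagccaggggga
LINC00607: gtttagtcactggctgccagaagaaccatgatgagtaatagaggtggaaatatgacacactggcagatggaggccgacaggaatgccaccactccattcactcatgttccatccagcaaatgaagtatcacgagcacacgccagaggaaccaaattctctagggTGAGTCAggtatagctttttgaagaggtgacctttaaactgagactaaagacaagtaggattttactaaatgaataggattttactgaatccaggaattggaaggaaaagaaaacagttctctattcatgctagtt

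Most of the genes were present at low levels. The median of the mean RPKM was 1.27, 91 genes reached 1, 13 reached 5 and 4 reached 10. LINC00942, at chr12:1500525-1507318, stood far above the rest at 81.5, and LINC00961 came next at 14.8. LINC00942 alone made up 24.3% and 24.4% of the summed scaled RPKM of the 147 genes in controls and 20.7% and 21.6% after knockdown. All 147 together took 0.110% and 0.112% of assigned reads in controls and 0.115% and 0.112% after knockdown, so their joint share of the reads was nearly level between the groups. Just inside the limit of 0.5 lay LINC01433 at 0.514, LINC01126 at 0.512 and LINC00618 at 0.507, and just outside it LINC01521 at 0.482, LINC00476 at 0.481 and LINC00853 at 0.475.

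**Figure D1:**
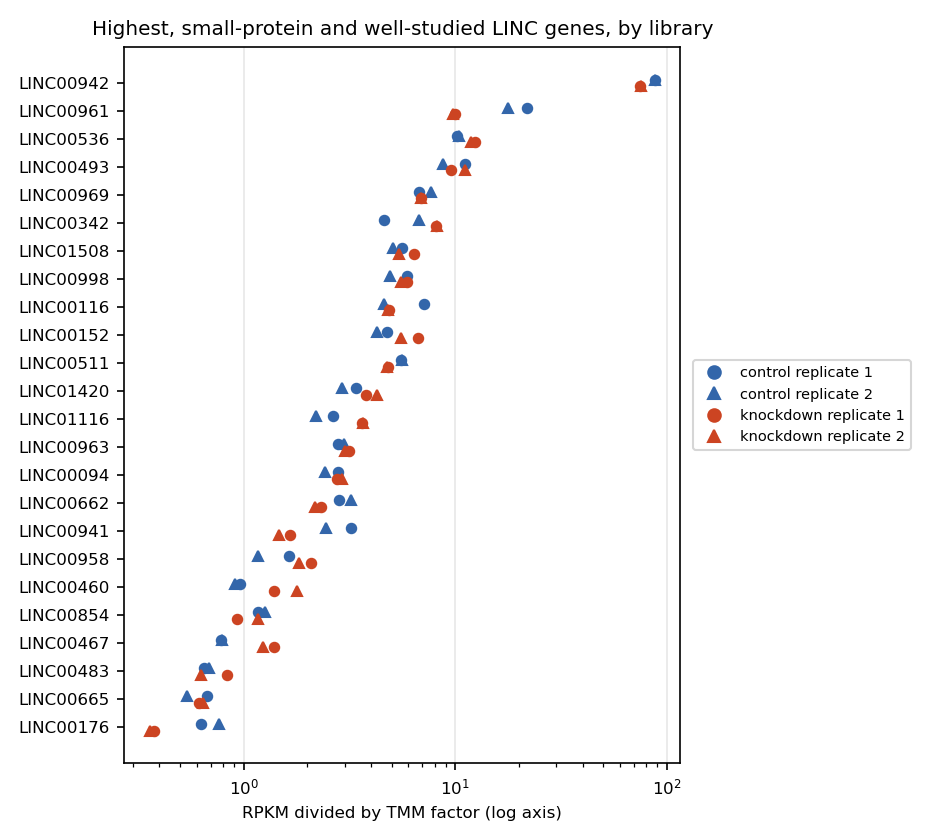
Scaled RPKM (log axis) of the LINC genes with the highest levels, those whose locus encodes a small protein and those often studied in cancer, ordered by mean level. Circles are replicate 1 and triangles replicate 2, blue for control and red for knockdown. LINC00942 lies at 74.8 to 88.1 and the next gene, LINC00961, at 9.76 to 21.9. The groups overlap in 9 of the 24 genes and lie apart in 15, where they lie apart in 67.6% of all tested genes.

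The first question was how the LINC genes moved when HNRNPM was reduced. Of the 147 genes, 131 passed the filter on low values (at least 10 reads at median depth in 2 libraries and 15 in all) and 16 did not. The 16 untested genes were short, with a median exon length of 486 bases, and had 0 to 17 reads in a library. In limma over all 20221 tested genes with Benjamini-Hochberg adjustment at 0.05, 20 of the 131 were higher in the knockdown and 7 were lower, which is 15.3% and 5.34%. Over all tested genes 24.9% passed, 11.1% higher and 13.8% lower, so the share of LINC genes that passed, 20.6%, was somewhat below that background, and the larger share stood on the higher side. The median log2 fold change was 0.06 for the 131 and -0.03 for all tested genes. At an unadjusted limma p under 0.05 there were 51 of the 131, against 8250 of all 20221 tested genes (40.8%). By limma-voom on the reads recovered from the RPKM values 25 were higher and 14 lower, where 35.8% of all tested genes passed.

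The LINC genes carried few reads, with a median of 50.8 per library against 172.5 for all tested genes, and a median SE of 0.18 against 0.13. For the 104 that did not pass, the log2 fold changes ran from -0.82 (LINC01126) to 1.09 (LINC00704), 84 lay within 0.5 of 0, and the median half-width of the 95% interval was 0.45. A difference of that size could therefore not be seen in the median LINC gene at this depth. The groups of libraries did not overlap in 86 of the 131, 47 with the knockdown above and 39 below, which is 65.6% against 67.6% of all tested genes. Among the 131, 5 genes passed with a rise and 1 with a fall by a log2 fold change of 1 or more. Over all 20221 tested genes these numbers were 460 and 402. Of the 20 higher genes 3, LINC00880, LINC00866 and LINC00189, passed the filter through the knockdown libraries alone, and all 3 are among those 5.

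The counts fell with a library left out, for the LINC genes and for all genes alike. Without control replicate 1 there were 7 higher and 4 lower, without control replicate 2 there were 12 and 4, without knockdown replicate 1 there were 3 and 2, and without knockdown replicate 2 there were 3 and 3. The share of all tested genes that passed was 19.8%, 18.0%, 7.06% and 8.27% in the same 4 fits, against 24.9% with all libraries. LINC01559, LINC01510, LINC00852 and LINC00961 passed each time. The other 23 failed, or were not tested, in at least 1 of the 4 fits. An exact permutation test of 2 against 2 libraries cannot go below p = 0.333, so the test rests on the spread that limma shares across genes.

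**Figure D2:**
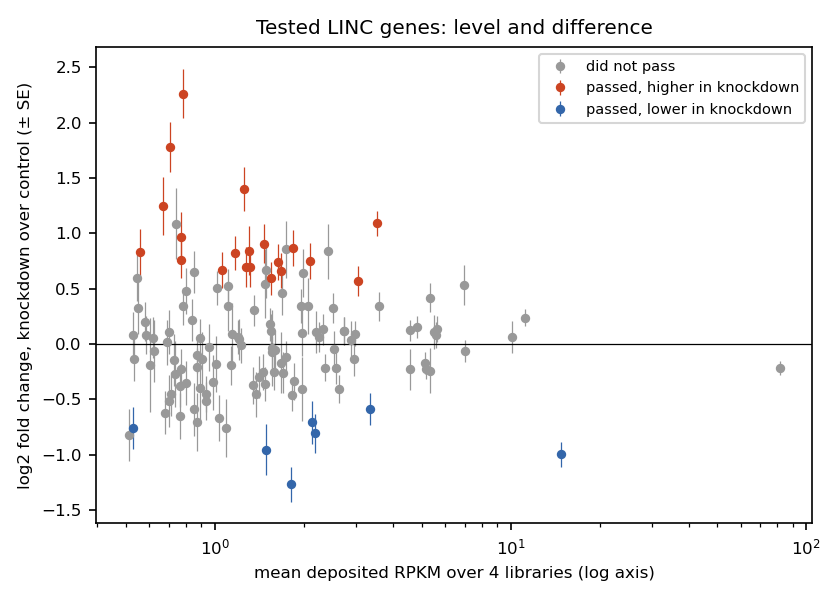
Log2 fold change of the 131 tested LINC genes (knockdown over control, bars are SE) against the mean deposited RPKM (log axis). Red and blue points passed the test as higher (20) and lower (7), and grey points did not (104). The largest changes, of LINC00880 (2.26) and LINC01559 (1.78), are at mean levels of 0.782 and 0.702 RPKM.

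The largest increases were in genes that were scarce in the control cells. LINC00880, a 4-exon gene at chr3:157081667-157123004, was at 0.247 and 0.156 scaled RPKM in the controls (9 and 6 reads) and at 1.44 and 1.23 in the knockdown (38 and 29 reads). Both knockdown libraries were several times above both controls, with a log2 fold change of 2.26 ± 0.23 (SE; adjusted p = 0.00494). It passed the filter on low values through the knockdown libraries alone, where it is high, so a difference was built into its selection for the test and its p is no independent support. It was not tested with a knockdown library left out. Its exons share 1078 bases with an unnamed transcript on the other strand. LINC01559, at chr12:13371089-13387167, was at 0.210 and 0.304 against 1.26 and 0.995, again with the groups well apart. It rested on 15 and 23 reads against 65 and 46, and rose by 1.78 ± 0.23 (adjusted p = 0.00697). With a library left out its adjusted p was 0.0145 to 0.0384. Differences are on the log2(scaled RPKM + 0.1) scale, which understates the change of such low genes. With a pseudocount of 1 in place of 0.1 the value was 0.96 for LINC00880 and 0.76 for LINC01559, and it shrank by over 1.5 times in 15 of the 22 named genes that passed; all 22 still passed.

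LINC01510, also called COMETT and described as a transcript antisense to the receptor tyrosine kinase gene MET, was the highest-level gene among those that rose 2-fold or more. It lies at chr7:116570960-116614820, on the minus strand between CAV1 and MET. It was at 2.30 and 2.11 scaled RPKM in the controls and at 4.80 and 4.82 in the knockdown. The replicates of each group nearly coincided, and the log2 fold change was 1.09 ± 0.11 (adjusted p = 0.00517). LINC00866 (GOLGA7B-DT) was at 0.531 and 0.751 against 1.83 and 1.84, a log2 fold change of 1.40 ± 0.20, but had only 4 to 10 reads in a library, passed the filter through the knockdown libraries alone and was not tested with any library left out. LINC00189 was at 0.408 and 0.289 against 0.775 and 1.18 (log2 fold change 1.25 ± 0.26), from 6 to 15 reads, also passed the filter through the knockdown alone, and shares 302 exon bases with BACH1 on the same strand. BACH1, a repressor of heme and oxidative stress genes, was at 7.78 and 7.35 against 9.48 and 8.22 and did not pass (0.22 ± 0.10).

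The other 7 of the 12 largest increases were between 0.76 and 0.97. LINC01239, at chr9:22646200-22824213, was at 0.389 and 0.591 against 1.04 and 1.03, and rose by 0.97 ± 0.22. LINC01393 was at 0.879 and 1.09 against 1.76 and 2.10, and rose by 0.91 ± 0.18. LINC00607, a long locus known as a source of enhancer-derived RNA in endothelial cells, was at 0.788 and 0.837 against 1.47 and 1.57. It rose by 0.83 ± 0.15 (adjusted p = 0.018) and carried 80 to 108 reads, more than most of the higher genes. The groups did not overlap in any of these, as in 67.6% of all tested genes. LINC01271 rose by 0.87 ± 0.16, LINC01176 by 0.84 ± 0.22, LINC00330 by 0.83 ± 0.21 and LINC00313 by 0.76 ± 0.16. LINC00313 shares 425 bases at full identity with LINC01669, so its reads may include those of that copy. The reads of LINC01176 ran from 13 to 22 in a library and those of LINC00330 from 13 to 20. Without knockdown replicate 1 the value of LINC01176 was 0.54 (adjusted p = 0.149), and by limma-voom it did not pass (adjusted p = 0.0613).

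**Figure D3:**
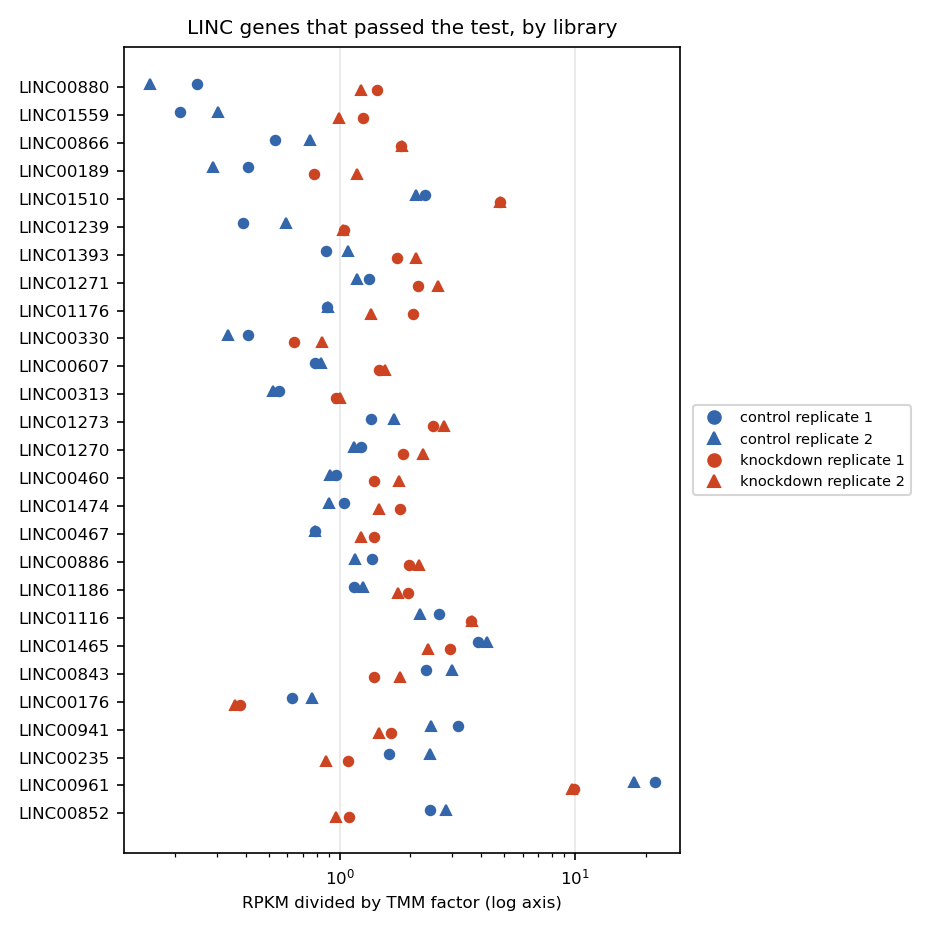
Scaled RPKM (log axis) of the 27 LINC genes that passed the test, in each library, ordered from the largest increase (LINC00880, log2 fold change 2.26) to the largest decrease (LINC00852, -1.27). Circles are replicate 1 and triangles replicate 2, blue for control and red for knockdown. In each gene both libraries of one group lie above both of the other. The genes were picked by the test on these same libraries, so this adds no support. The groups lay apart in 67.6% of all tested genes.

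Fewer genes fell, and the largest falls included the LINC gene with the second highest level. LINC00852, a single-exon gene at chr3:10284419-10285746, was at 2.42 and 2.84 scaled RPKM in the controls and at 1.10 and 0.966 in the knockdown. The groups were well apart, with 58 and 72 reads against 19 and 15, and the log2 fold change was -1.27 ± 0.16 (adjusted p = 0.00673, and 0.0154 to 0.0354 with a library left out). It shares 72 exon bases with GHRL, the ghrelin gene, on the opposite strand, and GHRL itself fell, from 1.96 and 1.88 to 1.34 and 1.04 (log2 fold change -0.66 ± 0.17).

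LINC00961 encodes SPAAR, a small protein of the lysosome membrane that dampens the activation of mTORC1 by amino acids. It lies at chr9:35909483-35937153 and was at 21.9 and 17.9 scaled RPKM in the controls and at 9.94 and 9.76 in the knockdown. With 269 to 932 reads it was the most deeply read of the genes that passed, and its log2 fold change was -0.999 ± 0.11 (adjusted p = 0.00585, and 0.0073 to 0.0388 with a library left out). LINC00235, which starts 310 bases from CAPN15 on the other strand, was at 1.62 and 2.42 against 1.09 and 0.873. The control replicates of LINC00235 differed from each other by more than the closest libraries of the 2 groups did, and its log2 fold change was -0.95 ± 0.23 (adjusted p = 0.0366).

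LINC00941, at chr12:30795681-30802711 and studied in skin and in several carcinomas, was at 3.20 and 2.45 against 1.66 and 1.47. It fell by 0.81 on the log2 scale (SE 0.17; adjusted p = 0.0264), and its adjusted p was 0.0763 without control replicate 1, 0.0269 without control replicate 2, 0.073 without knockdown replicate 1 and 0.105 without knockdown replicate 2. LINC00176, now C20orf204, was at 0.627 and 0.764 against 0.377 and 0.359 (-0.76 ± 0.19), LINC00843 at 2.34 and 3.02 against 1.40 and 1.80 (-0.71 ± 0.19), and LINC01465 at 3.86 and 4.24 against 2.96 and 2.38 (-0.59 ± 0.14). None of these 3 held with a library left out. LINC00843 shares 131 exon bases with TIMM23B and has 2 near-identical copies, and did not pass by limma-voom (adjusted p = 0.0945). LINC01465 runs opposite MIRLET7I, the gene of the let-7i microRNA.

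The genes with the highest levels mostly did not pass. LINC00942 was at 87.5 and 88.1 scaled RPKM in the controls and at 74.8 and 75.9 in the knockdown. Both knockdown libraries were below both controls, and the log2 fold change was -0.22 ± 0.06, with a 95% interval of -0.38 to -0.06 and an adjusted p of 0.0544; it passed under the stricter filter (0.0498) and by limma-voom (0.0177). LINC00536 was at 10.2 and 10.4 against 12.4 and 11.9 (0.24 ± 0.08; adjusted p = 0.0713). LINC00342 was at 4.62 and 6.76 against 8.07 and 8.23, a value of 0.54 ± 0.18 that did not pass (adjusted p = 0.0833), and its control replicates differed from each other. It was at 0.81 without control replicate 2 (adjusted p = 0.0145) and at 0.27 without control replicate 1, and passed under a stricter filter (0.0448) and by limma-voom (0.00471). A part of its transcript, 400 bases long, is repeated elsewhere at 99% identity. LINC00969, an overlapping transcript of the MUC20 locus, and LINC01508 had overlapping groups, at 6.75 to 7.65 and 5.08 to 6.38.

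Small proteins are encoded by 10 of the genes: 9 have a protein-coding RefSeq entry today, and the locus of LINC00467, still listed as non-coding, encodes a peptide of the mitochondrial ATP synthase. Of these 10, LINC00467 rose, LINC00961 and LINC00176 fell, and 7 did not pass; this is 30% called, near the 24.9% of all tested genes. LINC00467 was at 0.785 and 0.788 against 1.39 and 1.23, a log2 fold change of 0.67 ± 0.16. The mitochondrial proteins SMIM26 (LINC00493) and mitoregulin (LINC00116, MTLN) had overlapping groups, at 8.77 to 11.1 and at 4.62 to 7.14 scaled RPKM. Without control replicate 2 LINC00116 was at -0.55 and passed (adjusted p = 0.0348), and without control replicate 1 it was at 0.07. SMIM30 (LINC00998), of the endoplasmic reticulum, was at 5.91 and 4.94 against 5.89 and 5.55, a log2 fold change of 0.08 with a 95% interval of -0.22 to 0.38. NBDY (LINC01420), which binds the messenger RNA decapping complex, was at 3.38 and 2.91 against 3.77 and 4.26; its value of 0.34 ± 0.13 did not pass (adjusted p = 0.109). BRD3OS (LINC00094), CCDC200 (LINC00854) and ANKRD40CL (LINC00483) had overlapping groups.

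A set of 9 of the genes is among those most often studied in liver and other cancers. Of these, LINC01116 and LINC00460 rose, LINC00941 fell, and 6 did not pass, so 3 of 9 were called against 24.9% of all tested genes. LINC01116 was at 2.64 and 2.20 against 3.61 and 3.65, a log2 fold change of 0.57 ± 0.13, while LINC01117, which shares 222 exon bases with it on the opposite strand, was at -0.04 and did not pass. LINC00460 was at 0.963 and 0.909 against 1.40 and 1.78, a log2 fold change of 0.70 ± 0.18 from 20 to 24 reads, and its adjusted p rose from 0.041 to between 0.0653 and 0.17 with a library left out and was 0.0781 by limma-voom. LINC00152, known as CYTOR, the cytoskeleton regulator RNA, was at 4.78 and 4.29 against 6.69 and 5.54, with the knockdown above but an adjusted p of 0.0651 (0.42 ± 0.13); it passed under the stricter filter (adjusted p = 0.035) and by limma-voom (0.00727). Its near-identical copy MIR4435-2HG, 99.2% alike over 2254 bases, was at 3.19 and 3.27 against 3.35 and 3.13 (log2 fold change 0.00 ± 0.11).

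The remaining well-studied genes also did not pass. LINC00662 was at 2.83 and 3.20 against 2.32 and 2.18 (-0.41 ± 0.13; adjusted p = 0.0715), and LINC00511 at 5.56 and 5.63 against 4.81 and 4.76 (-0.22 ± 0.09; adjusted p = 0.124). In both the knockdown libraries lay below the controls, and both passed by limma-voom (adjusted p = 0.00597 and 0.0438). LINC00958 was at 1.64 and 1.17 against 2.08 and 1.82 (0.46 ± 0.20), LINC00963 at 2.79 and 2.97 against 3.14 and 3.01 (0.09 ± 0.11), and LINC00665, which overlapped between the groups, at 0.538 to 0.670.

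Nearby genes were then read from the same fit, since many LINC RNAs lie next to protein-coding genes and some act on them. For each gene the nearest named gene that is not itself LINC, antisense, a clone name or a small RNA was taken. Of the 131 tested LINC genes, 102 had a tested neighbour, and these neighbours were 98 different genes, of which 13 rose and 12 fell, or 13.3% and 12.2%. This is near the 11.1% and 13.8% of all tested genes. The 13 higher LINC genes with a tested neighbour had 11 different ones, of which 4 rose and 1 fell. The 7 lower LINC genes had 7, of which 2 fell and 0 rose; by limma-voom the counts over all 98 were 23 higher and 18 lower, where 35.8% of all tested genes passed.

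**Figure D4:**
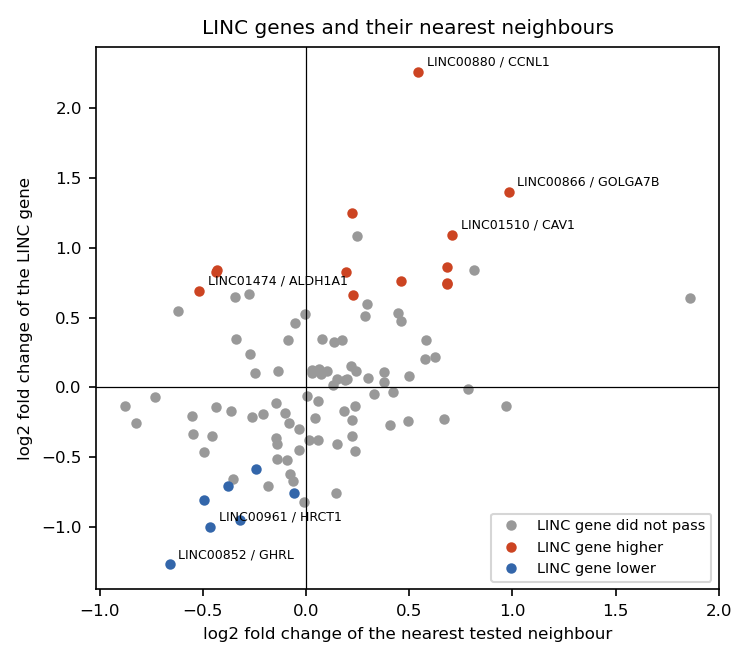
Log2 fold change of each tested LINC gene (vertical axis) against that of its nearest tested neighbour (horizontal axis), with 6 pairs named. Red and blue mark LINC genes that passed as higher and lower. The 7 lower LINC genes all sit left of 0, with neighbour values from -0.66 (GHRL) to -0.06 (PRPF6), while the higher ones lie on both sides.

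The neighbours that rose with a LINC gene were CEBPB, CAV1, CCNL1 and GOLGA7B. CCNL1, cyclin L1, lies 23.5 kb from LINC00880 and was at 7.34 and 7.99 scaled RPKM in controls and 11.9 and 10.6 after knockdown (log2 fold change 0.54 ± 0.10). GOLGA7B, whose start lies 441 bases from that of LINC00866 on the other strand, was at 2.24 and 2.04 against 4.41 and 4.25 and rose by 0.98 ± 0.12. LINC00866 itself rested on few reads and entered the test through the knockdown libraries alone. Of the 147 LINC genes, 10 start within 1 kb of a named gene on the other strand, LINC, antisense and clone names not counted. The neighbours that fell with a LINC gene were GHRL, above, and CAPRIN2, an RNA-binding protein gene 40.7 kb from LINC00941, at 4.69 and 5.29 against 3.27 and 3.75 (-0.49 ± 0.12). ALDH1A1, a retinaldehyde dehydrogenase gene, fell by 0.52 on the log2 scale, against its neighbour LINC01474, which rose in limma but did not pass by limma-voom (adjusted p = 0.149).

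At the CEBPB locus 3 LINC genes rose together. CEBPB, a transcription factor of liver and inflammation genes, was at 47.0 and 44.6 scaled RPKM in controls and 72.8 and 74.2 after knockdown (0.68 ± 0.07). LINC01273, which ends 14.1 kb before it, was at 1.36 and 1.70 against 2.48 and 2.77 (0.75 ± 0.16). LINC01270, 100.03 kb beyond it, was at 1.23 and 1.15 against 1.85 and 2.27 (0.74 ± 0.16), and LINC01271, at chr20:50310711-50321342, at 1.33 and 1.19 against 2.14 and 2.62 (0.87 ± 0.16). In each of the 4 genes both knockdown libraries lay above both controls. All 4 had passed the test on the same libraries, so this adds no support. The groups lay apart in 67.6% of all tested genes. LINC01270 and LINC01271 run on opposite strands and share 1333 exon bases, so their values may not be independent. Left out in turn, the libraries gave LINC01271 adjusted p-values of 0.0386 and 0.0573 (control replicates 1 and 2) and 0.0492 and 0.0897 (knockdown replicates 1 and 2). LINC01270 and LINC01273 fall outside the rule for named genes and were chosen after their values were seen, as were LINC01474, LINC01117 and LINC00704. The 147 LINC genes form 9 groups of genes within 200 kb of each other, 19 genes in all, and this is the 1 group whose members all passed in the same direction.

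At the CAV1 locus the genes did not move together. CAV1, which encodes the main protein of caveolae and lies 9.78 kb from LINC01510, was at 636.5 and 603.1 against 1019 and 1007 scaled RPKM, and rose by 0.71 ± 0.10. CAV2, its partner gene on the other side, was at 236.8 and 198.5 against 255.8 and 258.0 and did not pass (0.24 ± 0.10). MET, the receptor of hepatocyte growth factor, was very abundant at 1721 and 1827 against 1320.5 and 1310.0, and its value of -0.43 ± 0.13, opposite in sign to that of LINC01510, did not pass either.

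**Figure D5:**
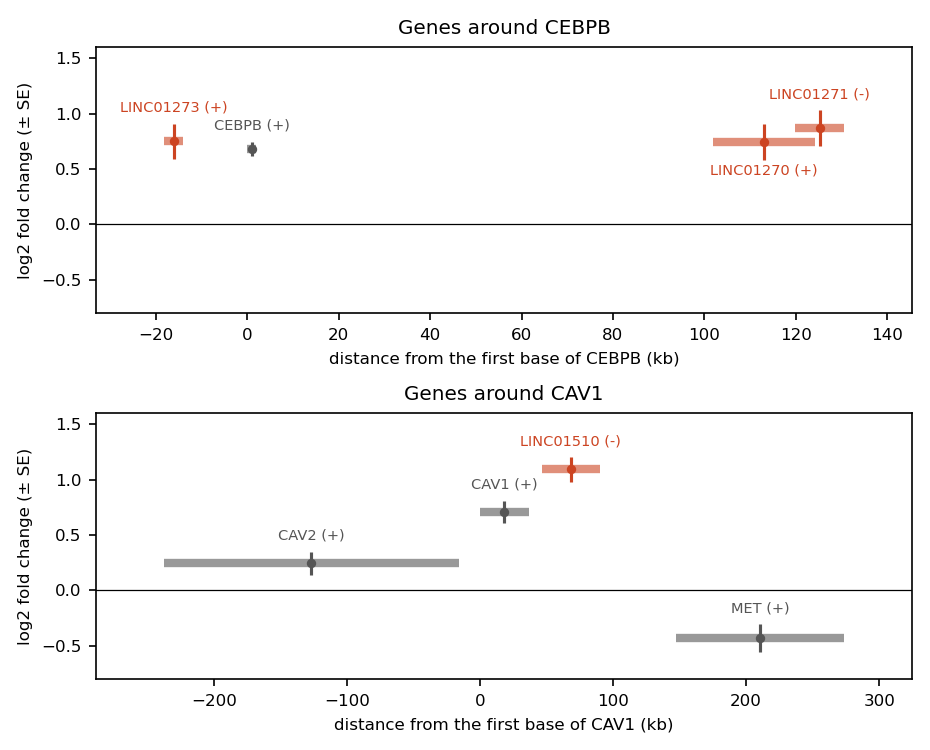
Log2 fold change (knockdown over control, bars are SE) of the LINC genes near CEBPB and CAV1 and of the coding genes named in the text, drawn at their distance in kb from the first base of that gene; the bar is the gene body and the sign its strand. LINC genes are red and other genes grey. The 4 genes drawn at CEBPB lie between 0.68 and 0.87, whereas those at CAV1 run from -0.43 (MET) to 1.09 (LINC01510).

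The RefSeq promoter table held a window for 102 of the LINC genes within 2000 bases of the start in the files. LINC00880 and LINC01559 were not matched. The AP-1 string TGANTCA (searched on both strands, where N is any base) was looked for because genes of AP-1 subunits were raised in the knockdown: FOS was at 10.5 and 11.1 scaled RPKM in controls and 64.9 and 61.2 after knockdown, and JUN at 27.2 and 29.4 against 64.0 and 64.5. It stood in 3 of the 13 windows of higher genes, in 0 of the 6 of lower genes, in 7 of the 71 of genes that did not pass and in 2 of the 12 of genes not tested. Over 35116 RefSeq promoters of the same length it stood in 7.71%, and over the 102 in 11.8%. TGANTCA also admits TGAATCA and TGATTCA, so these counts are for a wider string than the AP-1 site. The 3 higher genes were LINC01271 and LINC00460, with 2 matches each, and LINC00607 with 1, all printed above. The cyclic AMP response string TGACGTCA, which shares no full match with the AP-1 string, stood in 1 of the 102 windows and in 1.85% of all.

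GU-rich strings, to which HNRNPM is known to bind, were counted on the sense strand of the longest GENCODE transcript of 143 of the genes. GTGGTGG stood 0.0567 times per kilobase in the 20 higher genes, 0.225 in the 7 lower ones and 0.154 in the 103 that did not pass, against 0.191 over all GENCODE genes. The matches were few. The higher genes, 35.24 kilobases in all, held 1 each in LINC01239 and LINC01116. The lower genes, 13.35 kilobases in all, held 2 in LINC00961 and 1 in LINC00176. The difference between these rates was not tested. GGTTGGTT was absent from the higher and the lower genes and stood 0.0073 times per kilobase in those that did not pass, against 0.0124 over all genes. A string this rare would often be absent from so few kilobases. These are spliced transcripts, so introns were not searched.

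The nuclear decay machinery limits many long non-coding RNAs. Of 23 genes of the exosome, its adapters and the cap-binding complex, 0 rose and 1 fell in limma, where 24.9% of all tested genes passed. The median log2 fold change of the 23 was -0.04. At an unadjusted p under 0.05 there were 8, against 8250 of all 20221 genes (40.8%), and limma-voom gave 2 higher and 5 lower, where 35.8% of all genes passed. The gene that fell was NCBP1, the large cap-binding subunit, at 11.0 and 10.1 scaled RPKM against 8.54 and 7.88 (-0.36 ± 0.09). The exosome nuclease genes DIS3 and EXOSC10 were at 2.30 and 2.05 against 2.18 and 1.84 and at 9.19 and 9.13 against 9.18 and 9.08. The adapter gene SKIV2L2, which encodes the helicase MTR4, was at 9.16 and 8.19 against 7.68 and 6.53 (-0.29 ± 0.12), and RBM7 at 1.70 and 1.35 against 2.38 and 2.05 (0.52 ± 0.17); neither passed.

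LINC genes below the limit of 0.5 and antisense genes gave a comparison. Of the 395 lower-level LINC names, 45 were tested. In limma 1 was higher and 0 lower (2.22%), where 24.9% of all tested genes passed. At an unadjusted limma p under 0.05 there were 7, against 40.8% of all tested genes. By limma-voom 3 were higher and 2 lower, where 35.8% of all passed. These 45 had a median of 14.75 reads per library and a median SE of 0.24, so differences were harder to see in them. Of the 926 names ending in AS and a number, 534 were tested, and 33 rose and 48 fell, or 6.18% and 8.99%. Over all tested genes these shares were 11.1% and 13.8%. The 534 antisense genes had a median log2 fold change of -0.06 and a median of 47.5 reads per library, close to the 50.8 of the LINC genes. The difference in direction between antisense names and LINC genes was not tested. Leaving out the 59 LINC genes that share exon bases with another gene kept 73 tested, of which 12 rose and 4 fell, or 16.4% and 5.48%.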

How the data were processed

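RNA-seq of 4 libraries was analysed at gene level. The submitters' processing notes list StringTie 1.3.2, edgeR 3.12.1, featureCounts, Subread 1.5.1 and Trimmomatic 0.36, with no role or order. The deposited tables give RPKM per gene name, made by the authors. No source used here states the aligner, how molecular identifiers were handled or whether strand was used. The notes name mouse build mm9, but of 26361 names found once in GENCODE v29 (GRCh38), 99.996% agreed in chromosome and 93.8% in both ends, so coordinates are GRCh38 as the files give them. All values were whole multiples of 1 read within 0.01, which gave read counts per gene.

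Values were divided by TMM factors (0.984, 0.972, 1.03 and 1.02) computed on those reads, taken as log2(value + 0.1), and fitted in limma 3.58.1 (R 4.3.3) with a mean-variance trend and group as the only term; p-values were adjusted over 20221 genes. The filter was 10 reads at median depth in 2 libraries and 15 in all. The spread was estimated from 2 residual degrees of freedom. The fit was tested on simulated data. Copies were sought with blastn 2.17.0+ among GENCODE transcripts. Alternatives were other pseudocounts, filters, scalings, limma-voom on recovered reads, a replicate term and leaving out each library.

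The genes and lists were chosen with earlier results of these data known. Named with full values were the 12 largest increases and decreases, the 8 highest levels, small-protein loci, well-studied genes and the genes next to the limit. One gene of chromosome Y is counted but not described.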

Additional observations from a re-analysis of the deposited data

How the results depend on the processing

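The 7 lower LINC genes became 14 under the stricter filter (30 reads; 105 genes tested) and 14 under limma-voom; without a filter 2 were higher and 2 lower, and among genes with no exon overlap 12 and 4 (73 tested). With 1 library left out, the LINC genes called ran from 3 to 12 higher and 2 to 4 lower, the nearest neighbours from 3 to 13 higher and 3 to 8 lower, and the decay genes were 0 and 0 each time. Of neighbours, 21 rose when scaled to total reads only, 23 by limma-voom, and 5 rose and 4 fell without a filter. Of decay genes, 1 rose and 0 fell when scaled to total reads only, 0 fell with median-of-ratios factors or without a filter, 2 rose and 3 fell under the stricter filter, and 2 and 5 by limma-voom. The share of all tested genes that passed moved too: 36.9% under the stricter filter, 4.59% without a filter, 35.8% by limma-voom and 7.06% to 19.8% with a library left out, against 24.9%.

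Signs turned in genes that did not pass, each time with a library left out. Over the 4 such fits LINC00493 ran from -0.1063 to 0.2317 (below 0 without control 2 and, at -0.06782, without knockdown 2), LINC00969 from -0.1541 to 0.0248, LINC00998 from -0.04617 to 0.2072, LINC00665 from -0.0793 to 0.1927, LINC00116 from -0.5505 to 0.06691, LINC01508 from -0.003164 to 0.2293 and LINC00483 from -0.09009 to 0.2664. For the 22 named genes that passed, 193 of 272 values under the alternatives passed too, 79 did not (52 with a library left out, 18 without a filter) and 0 changed sign.

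Replicate numbers are shared between the groups. Deviations of same-numbered libraries had a correlation of 0.06 over 2 pairs. A value this low shows no pairing, but 2 pairs cannot exclude it. With a replicate block 20 LINC genes were higher and 7 lower, 23 of them among the 27 reported. Depth limits the genes with few reads: the 16 untested had at most 17 in a library.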

Other observations

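By limma-voom, which weights values by depth, 35.8% of all tested genes passed, and 25 LINC genes were higher and 14 lower. Of the 27 reported, 22 passed there too, 16 of the 20 higher and 6 of the 7 lower. LINC00704, at 1.09, had an adjusted p of 0.0599 in limma and 0.0125 in limma-voom.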
